A study of Rattus norvegicus with 6 samples.

Results

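The genes described here encode alpha and beta subunits of the GABA-A receptor: Gabra2, Gabra3, Gabra4, Gabra5, Gabra6, Gabrb1 and Gabrb2. They were chosen by gene symbol in the array platform's annotation, with the brightest probe set taken for each gene, and they are 7 of 18166 named genes. Each was read by 1 probe set, so no choice between probe sets was needed. RNA came from primary hippocampal neurons of rat embryos at day 18, grown with 10 µM FUDR (5-fluorodeoxyuridine), which keeps dividing cells from growing, and was measured on 6 single-colour Affymetrix arrays. At 4 days in vitro the cultures received adeno-associated virus (AAV) at 1800000 infectious units per ml, and were harvested for RNA at 14 days in vitro. The virus carried an Ncoa3 shRNA in 3 cultures and a control shRNA in the other 3, and the labels number 3 experiments that each gave 1 array per group. Both groups thus carried AAV and a hairpin, and no untreated culture was analysed here. The promoter that drives the hairpin, the cells it is active in and the number of hairpin sequences are not stated in the labels. The comparison asks which transcripts differ in these neurons when Ncoa3, a transcriptional coactivator of nuclear receptors, is reduced.

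GABA-A receptors are chloride channels opened by GABA, the main inhibitory transmitter of the adult brain. A channel is a ring of subunits that usually holds alpha subunits, beta subunits and a gamma or delta subunit, and GABA binds where a beta subunit meets an alpha subunit. The alpha subunit sets much of a receptor's pharmacology and location. Receptors with the products of Gabra2, Gabra3 or Gabra5 respond to classical benzodiazepines, whereas those with the products of Gabra4 or Gabra6 do not. Beta subunits are needed to assemble and deliver the receptor and hold sites that kinases phosphorylate. In hippocampal neurons the products of Gabra2 and Gabra5 are abundant, that of Gabra4 often pairs with the delta subunit outside synapses, and that of Gabra6 is known above all from granule cells of the cerebellum.

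Several of these genes lie side by side in the rat genome. In the RefSeq gene table (assembly GRCr8), Gabrb1 and Gabra4 are neighbours on chromosome 14, where Gabra2 lies next to Gabrg1, and Gabra6 and Gabrb2 are neighbours on chromosome 10. Promoter sequence was available for 6 of the 7 genes, all but Gabra2, in the RefSeq promoter table of the same build. The 250 bases before the start of 4 genes are shown 5′ to 3′ on the gene's strand. Gabrb1 and Gabrb2 are shown because their signals differed most between experiments, and Gabra4 and Gabra6 because their signals did not overlap between the shRNA groups. The windows are chr14:36902894-36903143 (minus strand) for Gabrb1, chr10:27439543-27439792 (plus strand) for Gabrb2, chr14:36944497-36944746 (plus strand) for Gabra4 and chr10:27327235-27327484 (minus strand) for Gabra6. Capitals mark the palindrome GCGCATGCGC, a known binding sequence of the transcription factor NRF1 that lies in the longest run shared by the Gabrb1 and Gabrb2 windows (11 bases).
Gabrb1: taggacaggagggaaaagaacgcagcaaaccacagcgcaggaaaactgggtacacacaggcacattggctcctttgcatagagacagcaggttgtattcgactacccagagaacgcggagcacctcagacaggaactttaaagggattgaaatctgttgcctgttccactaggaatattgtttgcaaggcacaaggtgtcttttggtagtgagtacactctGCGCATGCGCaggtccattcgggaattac
Gabrb2: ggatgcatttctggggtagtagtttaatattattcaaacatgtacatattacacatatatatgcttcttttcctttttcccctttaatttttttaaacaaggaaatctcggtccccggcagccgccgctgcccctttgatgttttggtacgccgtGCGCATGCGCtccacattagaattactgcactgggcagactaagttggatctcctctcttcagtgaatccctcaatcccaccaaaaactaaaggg
Gabra4: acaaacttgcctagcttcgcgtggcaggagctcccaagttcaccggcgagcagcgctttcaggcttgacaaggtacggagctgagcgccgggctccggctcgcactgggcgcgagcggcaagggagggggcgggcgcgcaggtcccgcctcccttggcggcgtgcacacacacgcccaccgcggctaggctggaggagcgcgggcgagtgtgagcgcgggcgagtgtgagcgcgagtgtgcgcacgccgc
Gabra6: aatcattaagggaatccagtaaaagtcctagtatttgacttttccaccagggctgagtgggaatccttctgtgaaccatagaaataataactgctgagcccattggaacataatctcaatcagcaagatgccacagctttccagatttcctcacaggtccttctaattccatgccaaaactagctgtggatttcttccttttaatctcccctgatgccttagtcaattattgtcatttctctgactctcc
The palindrome was chosen after these sequences were read. It starts 29 bases before the start of Gabrb1 and 95 bases before that of Gabrb2, and lies in 0.762% of 33469 promoter windows of this length. It is in neither the Gabra4 nor the Gabra6 window, nor in those of Gabra3 and Gabra5. The nuclear receptor half-site AGGTCA, searched on both strands, is in 14.1% of all windows and in 0 of these 6. TGACGTCA, the cyclic AMP response element, is in 1.59% of all windows and GCGTGGGCG, an Egr site, in 0.478%, and both are in 0 of the 6. TATAAA, also searched on both strands, is in 12.9% of all windows and in 1 of the 6, that of Gabra3, where the match lies on the strand opposite the gene. The windows differ in base composition: guanine and cytosine make up 71.6% of the Gabra4 window and 76.4% of that of Gabra5, against 40.4% for Gabra3, 41.2% for Gabra6, 43.2% for Gabrb2 and 49.2% for Gabrb1, with a median of 51.2% over all windows. These are matches of letters and show neither binding nor a cause.

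Signals are log2 values, 1 per probe set and array. The deposited array medians ran from 6.81 to 6.97 with Ncoa3 shRNA and from 7.08 to 7.25 with control shRNA, and the median gene differed by -0.25 (Ncoa3 shRNA minus control shRNA). Values below were therefore given the same distribution on all 6 arrays (quantile normalization) unless they are called deposited, which leaves a median difference of 0.01 over all genes. Of all probe sets, 8680 to 13979 had the same deposited value on a pair of arrays of 1 group, whereas pairs across the groups shared only 0 to 2. The labels name no processing run, any processing step done separately for each group cannot be told apart from the shRNA, and shared values can make the spread between replicates too small. Ncoa3 itself had signals of 7.60, 7.60 and 7.45 in experiments 1 to 3 with Ncoa3 shRNA, against 8.63, 8.72 and 8.22 with control shRNA, a change of -0.97 ± 0.142 (SE over 3 arrays per group). It passed limma's test (adjusted p = 0.00747), but not without experiment 1 or 2 (0.130 and 0.122). All 5 neuron markers looked for (Rbfox3, Map2, Tubb3, Snap25 and Syt1) lay between the 96.34th and the 99.82nd percentile of gene signals. Signals of other cell types were present too: astrocyte markers lay between the 67.7th and the 83.82nd percentile, fibroblast and vessel markers between the 26.37th and the 88.56th, oligodendrocyte lineage markers between the 23.66th and the 67.26th, and microglia markers between the 13.86th and the 26.54th. Signals of different probe sets are not comparable as amounts of RNA, so neither markers nor subunits are ranked by them.

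Of the 7 subunit genes, 1 fell with Ncoa3 shRNA (limma, adjusted p under 0.05) and 0 rose. Over all genes the same test called 19.5%, with 9.04% lower and 10.5% higher. The gene that fell was Gabra6, on a dim probe set. The other 6 were bright, between the 89.52nd percentile for Gabrb2 and the 99.69th for Gabra5, and none of them passed. All 7 mean changes were negative on this scale, from -0.45 for Gabra4 to -0.07 for Gabra5, with a median of -0.20, although those of Gabra3 and Gabra5 turned positive when only the array medians were set equal. The change was negative in all 3 experiments for 5 of the 7, a pattern that 33.5% of all genes showed. In the deposited values all 7 were lower in every experiment, as were 75.9% of all genes. On the quantile-normalised scale none of the 7 differed by as much as 1.5-fold, while 2.22% of all genes passed with a change of that size. In the deposited values Gabra6 (-0.67) and Gabra4 (-0.63) passed with a difference beyond 1.5-fold, as did 7.64% of all genes. The other deposited differences were -0.40 for Gabra2, -0.38 for Gabrb1, -0.36 for Gabrb2, -0.24 for Gabra3 and -0.16 for Gabra5, none past the test. In bulk RNA, fewer cells that express a gene and less of its RNA per cell cannot be told apart.

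**Figure D1:**
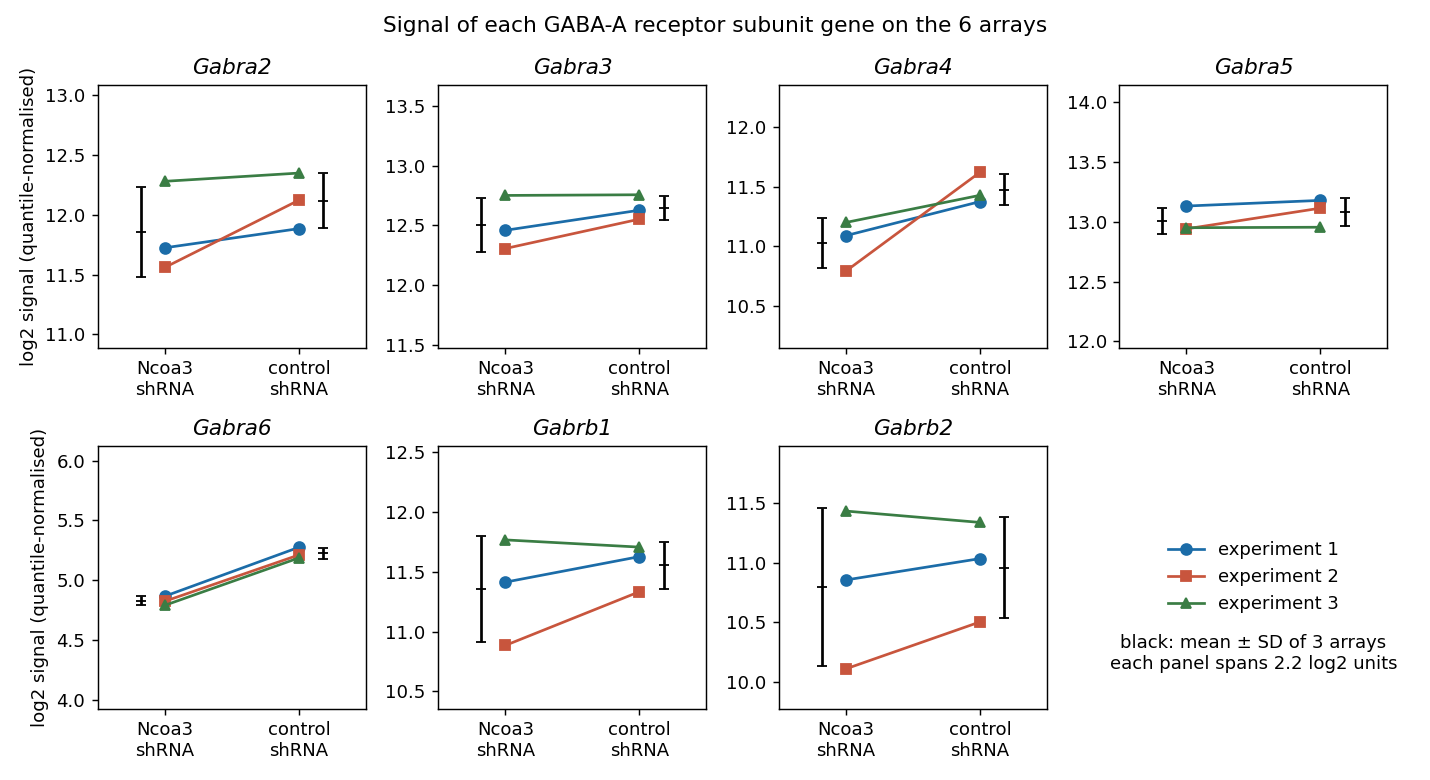
Quantile-normalised log2 signal of the 7 subunit genes (vertical axes) on Ncoa3 shRNA and control shRNA arrays, with a line joining the arrays of an experiment and the mean ± SD of 3 arrays in black. The groups part for Gabra4 and Gabra6, whereas for Gabrb2 the experiments lie further apart (10.31 to 11.38) than the shRNA groups (10.80 and 10.96).

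Gabra4 came closest to the threshold among the bright genes. Its signals were 11.09, 10.79 and 11.20 in experiments 1 to 3 with Ncoa3 shRNA, against 11.38, 11.62 and 11.43 with control shRNA. All Ncoa3 shRNA arrays lay below all control shRNA arrays, which was so for 19% of all genes. The means were 11.03 ± 0.210 with Ncoa3 shRNA and 11.47 ± 0.129 with control shRNA (SD, n = 3 each), a change of -0.45 ± 0.122 (SE), which is 1.36-fold lower. Limma's adjusted p was 0.0513, and the 95% interval ran from -0.74 to -0.15. The change was -0.28 in experiment 1, -0.83 in experiment 2 and -0.23 in experiment 3, so experiment 2 carried much of the mean. The deposited difference of -0.63 did pass (adjusted p = 0.0146, on a scale where 43.3% of all genes passed as lower), but not once the experiment was added as a block (0.0633). On the quantile-normalised scale Gabra4 passed in only 1 of 9 fits that left out an array or an experiment. That was the fit without Ncoa3 shRNA replicate 3 (limma's adjusted p = 0.0410), and in the others the adjusted p ran up to 0.226. With array medians set equal it was 0.18. The deposited value of Gabra4 was 11.49 on both control shRNA arrays of experiments 1 and 3.

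Gabra6 was dim in every culture, at the 8.973rd percentile of gene signals. Its signals were 4.87, 4.82 and 4.79 with Ncoa3 shRNA, against 5.28, 5.21 and 5.19 with control shRNA. The groups did not overlap, as for 19% of all genes in this direction. It fell by 0.40 ± 0.0427 on the log2 scale (SE), or 1.32-fold, with limma's adjusted p = 0.00273. The call was lost without experiment 1 (adjusted p = 0.0813) or experiment 2 (adjusted p = 0.109). The change hardly differed between experiments, at -0.41, -0.39 and -0.40. The deposited values were 4.70, 4.66 and 4.70 with Ncoa3 shRNA, against 5.39, 5.30 and 5.39 with control shRNA, so within each group replicates 1 and 3 had the same value, and the spread rests on 2 distinct values per group. Among genes below the median signal 28.6% passed the test, as did 10.4% of those at or above it. Of 5 markers of cerebellar granule cells, Cbln3 and Barhl1 were below the median gene, Zic1 and Zic2 were bright, and 0 passed. Their summed signal, which rests mostly on Zic1 and Zic2, ran from 12.77 to 12.91 with Ncoa3 shRNA and from 12.79 to 12.91 with control shRNA (log2).

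Gabra2, Gabra3 and Gabra5, which encode benzodiazepine-sensitive alpha subunits, overlapped between the groups. Gabra2 had signals of 11.72, 11.56 and 12.28 in experiments 1 to 3 with Ncoa3 shRNA, against 11.89, 12.12 and 12.35 with control shRNA. The arrays of experiment 3 were the brightest in both groups. Its change was -0.26 ± 0.209 (SE; limma's adjusted p = 0.435), with a 95% interval of -0.77 to 0.24, and it was -0.16, -0.56 and -0.07 by experiment. Gabra3, the only X-linked gene of the 7, had 12.46, 12.31 and 12.75 with Ncoa3 shRNA, against 12.63, 12.55 and 12.76 with control shRNA. In experiment 3 the arrays were nearly level (-0.01), and the mean change was -0.14 ± 0.119 (SE; adjusted p = 0.469; 95% interval -0.43 to 0.15). Gabra5, whose product forms mainly extrasynaptic receptors in the hippocampus, had the smallest change of the bright genes on this scale. It had 13.13, 12.94 and 12.95 with Ncoa3 shRNA, against 13.18, 13.12 and 12.96 with control shRNA, a change of -0.07 ± 0.0772 (SE; adjusted p = 0.554; 95% interval -0.26 to 0.11). With array medians set equal in place of quantile normalization, the changes were 0.04 for Gabra3 and 0.12 for Gabra5, neither past the test (adjusted p = 0.818 and 0.557). With experiments fitted as a block on the quantile-normalised scale, the SE was 0.115 for Gabra2, 0.0562 for Gabra3 and 0.0413 for Gabra5. None of these passed (limma's adjusted p = 0.151, 0.129 and 0.223). The deposited difference of Gabra5, -0.16, passed when experiments were fitted as a block (adjusted p = 0.0159). That fit was chosen after the data were seen and called 60.2% of all genes.

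The means of the beta subunit genes ranged further over the 3 experiments (by 0.63 for Gabrb1 and 1.08 for Gabrb2) than between the hairpins. The same was so for Gabra2, Gabra3 and Gabra5. Gabrb2, whose product is a common partner of the alpha subunit of the mature brain's most abundant receptor, had signals of 10.86, 10.11 and 11.43 with Ncoa3 shRNA, against 11.03, 10.50 and 11.34 with control shRNA. In both groups experiment 2 was lowest and experiment 3 highest. The change with Ncoa3 shRNA was -0.16 ± 0.368 (SE; limma's adjusted p = 0.807; 95% interval -1.05 to 0.74), and it was -0.18, -0.39 and 0.10 by experiment. Gabrb1 had 11.41, 10.88 and 11.77 with Ncoa3 shRNA, against 11.63, 11.33 and 11.71 with control shRNA, in the same order of experiments. Its change was -0.20 ± 0.230 (SE; adjusted p = 0.596; 95% interval -0.76 to 0.36), and -0.21, -0.45 and 0.06 by experiment. Both beta genes were thus higher with Ncoa3 shRNA in experiment 3 and lower in the others. The SE and intervals above leave out the pairing of arrays by experiment. With experiments fitted as a block, the SE was 0.109 for Gabrb2 and 0.113 for Gabrb1. Neither passed (limma's adjusted p = 0.307 and 0.230). Without Ncoa3 shRNA replicate 2 the mean changes turned to 0.03 for Gabrb1 and 0.19 for Gabrb2, neither past the test.

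**Figure D2:**
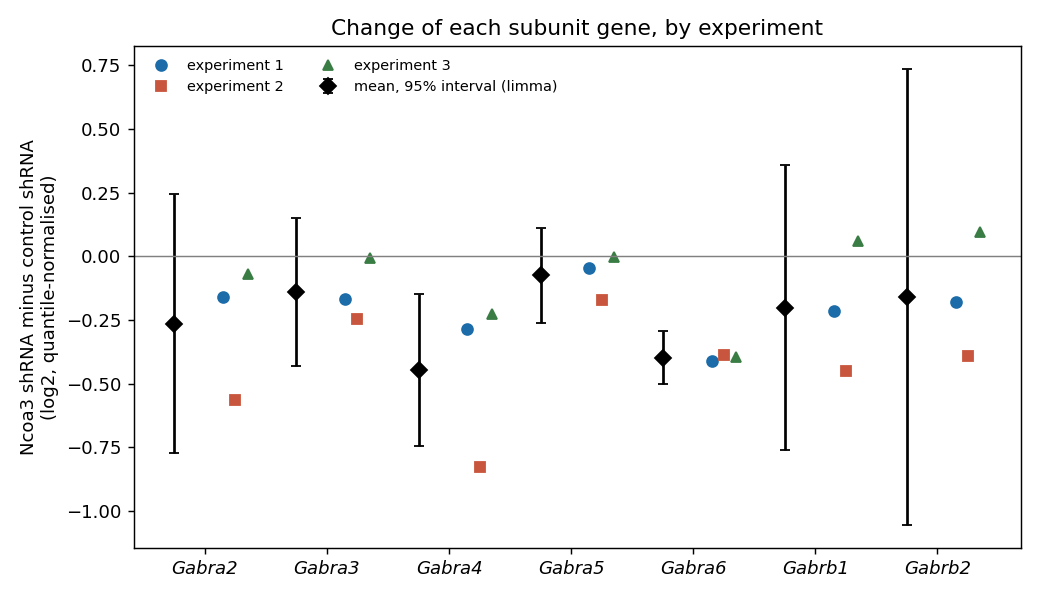
Change of each subunit gene (Ncoa3 shRNA minus control shRNA, log2, quantile-normalised) in experiments 1, 2 and 3, with the mean and its 95% interval in black. The interval excludes 0 for Gabra4 and Gabra6, and the change in experiment 2 was the most negative for every gene but Gabra6.

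Most subunit genes had their lowest signal and most negative change in experiment 2. The Ncoa3 shRNA array of experiment 2 gave the lowest of the 6 signals for 6 of the 7 genes (all but Gabra6), against 9.2% of all genes. The same 6 had their most negative change in experiment 2, against 38.6% of all genes. These counts overlap, since a low signal on that array also lowers the change. The pattern is not particular to the subunit genes. Ncoa3 (-1.12), Gad2 (-0.62) and Gphn (-0.52) also changed most in experiment 2, whereas Slc6a11 (-0.24) and Hap1 (-0.22) fell most in experiment 3. The genes were read on the same arrays, so they are not independent of each other, and with 1 array per group and experiment the difference in change between experiments cannot be tested. Neuron markers summed to 14.94 on the Ncoa3 shRNA array of experiment 2 and to 15.03 on its control shRNA array (log2 of summed signal). The control shRNA arrays ran from 14.88 to 15.08. Map2 (-0.29), Rbfox3 (-0.16), Snap25 (-0.21) and Syt1 (-0.07) also had their most negative change in experiment 2. Tubb3 did not (0.17). The part of neuron signal in the pattern was not tested.

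The test across experiments, with the shRNA group as a covariate, called 1 of the 7 genes, where it called 18.8% of all genes. Gabrb2 had means of 10.95, 10.31 and 11.38 in experiments 1, 2 and 3 and an adjusted p of 0.0484 in limma's F test. The call was lost in the deposited values (adjusted p = 0.149, where 1.91% of all genes passed), without the trend of variance on signal (0.0559), without either shRNA array of experiment 1 or 2 (0.120 to 0.203) and without any experiment (0.0982 to 0.313). Gabrb1 had means of 11.52, 11.11 and 11.74 and did not pass (adjusted p = 0.0882), nor did Gabra3 (0.0829), Gabra5 (0.113), Gabra2 (0.114), Gabra6 (0.141) or Gabra4 (0.874). For 5 of the 7 genes the mean was highest in experiment 3, against 27.1% of all genes, the exceptions being Gabra5 and Gabra6. Markers of other cell types also differed between experiments: all 4 that were measured of 5 listed (Aqp4, Gfap, Gja1 and Slc1a3) passed the F test, and their summed signal was 11.34, 11.56 and 11.91 in experiments 1 to 3. Between the shRNA groups these sums overlapped, at 11.29 to 11.96 with Ncoa3 shRNA and 11.40 to 11.87 with control shRNA. Of the fibroblast and vessel markers 3 of 4 measured passed, with sums of 10.97, 11.18 and 11.25, and of the oligodendrocyte lineage markers 2 of 5, with sums of 10.52, 10.63 and 10.74. Cldn5 and Pdgfra were among these but, unlike the sums, were lower in experiment 3 than in the others (-0.15 each). The deposited value of Cldn5 was the same on all 3 Ncoa3 shRNA arrays, and that of Pdgfra on all 3 arrays of each group. Of the microglia markers 1 of 5 passed, with sums of 8.26, 8.30 and 8.51, while 0 neuron and 0 interneuron markers did. In the deposited values no astrocyte, fibroblast and vessel, oligodendrocyte lineage or microglia marker passed the F test. The lowest adjusted p there was 0.064, for Col1a1. The sums of these 4 lists were lowest in experiment 1, and so was the neuron sum (14.91, 14.98 and 15.07). The interneuron sum was lowest in experiment 2 (14.51, 14.40 and 14.49), as was Gabrb2. The part of these markers in the result across experiments was not tested.

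**Figure D3:**
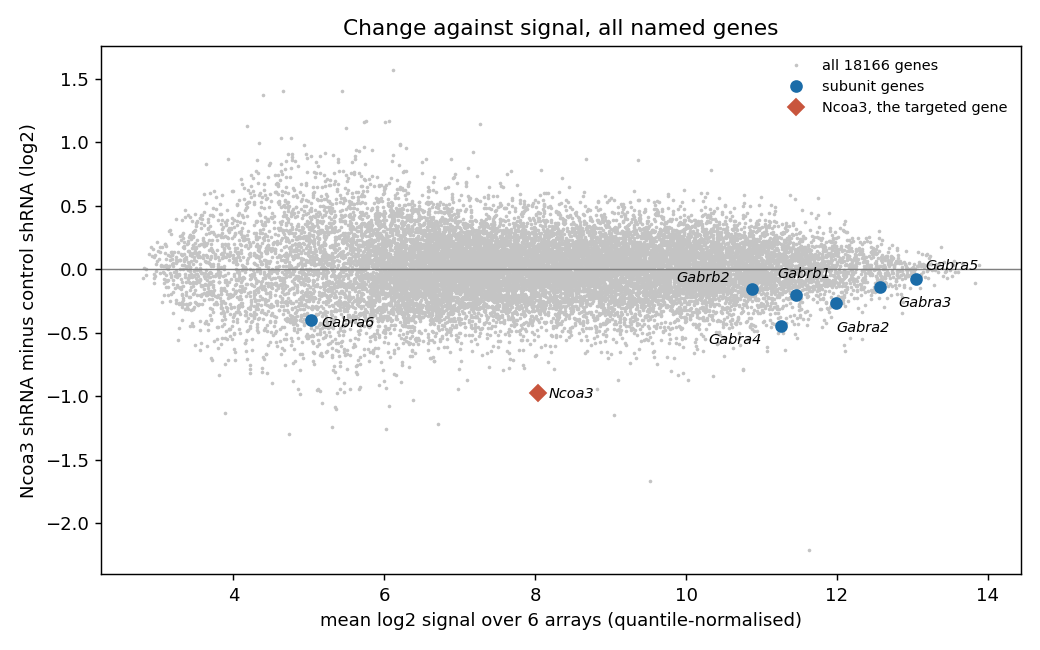
Change with Ncoa3 shRNA (log2, quantile-normalised, vertical axis) against mean log2 signal over the 6 arrays (horizontal axis) for 18166 genes, with the 7 subunit genes and Ncoa3 marked. The subunit genes other than Gabra6 sit at high signal and at or above -0.45, while Ncoa3 is at -0.97.

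The other subunits of the family had a median change of 0.16 over the 9 that were measured of 12 listed, beside -0.20 for the alpha and beta genes and 0.01 over all genes, and -0.11 in the deposited values. The difference between these lists was not tested. Of these 1 rose, 0 fell and 8 did not pass. Gabrr1, a rho subunit best known from the retina, rose by 0.28 ± 0.0643 (SE; limma's adjusted p = 0.0319). Its signals were 6.78, 6.78 and 6.70 with Ncoa3 shRNA, against 6.52, 6.53 and 6.37 with control shRNA, with no overlap, as for 21.5% of all genes in this direction. This direction depends on the scale, since its deposited difference was -0.01 (adjusted p = 0.766), and its deposited value was the same on all 3 control shRNA arrays. The call was lost in 6 of 9 fits that left out an array or an experiment (adjusted p up to 0.329). When experiments were fitted as a block, 4 of the 9 rose and 0 fell, while 39.3% of all genes passed and 20.8% were higher. The 3 further genes, named after their values were seen, were Gabrd, the delta subunit of extrasynaptic receptors, at 0.31 (adjusted p = 0.0254; 0.04 in the deposited values, adjusted p = 0.879), Gabrp at 0.16 (0.0116) and Gabrq at 0.17 (0.0333). In the deposited values 4 of the 9 were lower and 0 higher, and 47.2% of all genes passed. There Gabrp and Gabrq were among the lower, at -0.11 and -0.10 (adjusted p = 0.00332 and 0.0235).

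Genes that anchor, traffic or feed the receptor moved both ways. Of 26 measured of 29 listed, 3 rose, 3 fell and 20 did not pass, with a median change of -0.01, where 19.5% of all genes passed. When experiments were fitted as a block 9 passed, 4 higher and 5 lower. That fit loses Gphn and adds 4 genes, named after their values were seen: Iqsec3 at 0.15 (adjusted p = 0.0279), Slc12a2 at -0.26 (0.0180), Slc6a11 at -0.20 (0.0225) and Hap1 at -0.17 (0.0339). Iqsec3 was at -0.03 in the deposited values. Gphn encodes gephyrin, the scaffold under inhibitory synapses that holds receptors in place, and fell by 0.31 ± 0.0838 (SE; limma's adjusted p = 0.0494). It had 11.33, 11.32 and 11.45 with Ncoa3 shRNA, against 11.57, 11.84 and 11.63 with control shRNA. Under the block its adjusted p was 0.0584, and the call was lost in all 9 fits that left out an array or an experiment (adjusted p up to 0.291). Nlgn2, the adhesion protein of inhibitory synapses, rose by 0.16 ± 0.0423 (SE; adjusted p = 0.0430), was -0.02 in the deposited values (adjusted p = 0.754) and lost the call in 8 of the 9 fits (up to 0.376).

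Of the trafficking genes, Zdhhc3, a palmitoyltransferase that acts on gamma subunits, rose by 0.36 ± 0.0643 (SE; adjusted p = 0.0137). Trak2, an adaptor that links cargo to kinesin motors, fell by 0.29 ± 0.0590 (SE; adjusted p = 0.0220). Each lost the call in 6 of the 9 fits that left out an array or an experiment (adjusted p up to 0.198 for Zdhhc3 and 0.290 for Trak2). The deposited value of Trak2 was the same on all 3 Ncoa3 shRNA arrays, so its spread in that group comes from the normalization alone. The deposited differences were 0.18 for Zdhhc3 and -0.51 for Trak2. These were the 1 rise and the 1 fall among 9 measured trafficking genes.

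Genes of GABA synthesis and packing went in opposite directions. Slc32a1, the transporter that loads GABA into vesicles, had 10.97, 11.14 and 11.18 with Ncoa3 shRNA, against 10.55, 10.53 and 10.73 with control shRNA, and rose by 0.50 ± 0.0851 (SE; limma's adjusted p = 0.0122). Gad2, a GABA-synthesising enzyme, had 11.82, 11.46 and 11.65 with Ncoa3 shRNA, against 12.16, 12.08 and 11.96 with control shRNA, and fell by 0.42 ± 0.101 (SE; adjusted p = 0.0349). Neither gene overlapped between the groups, as for 21.5% of all genes in the direction of Slc32a1 and 19% in that of Gad2. The deposited difference of Slc32a1 was 0.30. Leaving out an array or an experiment lost the call of Slc32a1 in 5 of 9 fits (adjusted p up to 0.187) and that of Gad2 in 7 (up to 0.227). Gad1, the other GABA-synthesising enzyme, stood at 0.01 ± 0.0973 (SE; adjusted p = 0.977), and at -0.15 in the deposited values. Slc12a5, the chloride exporter KCC2 that makes GABA inhibitory in mature neurons, stood at 0.16 ± 0.0576 (SE; adjusted p = 0.116) and at -0.05 in the deposited values. Of the 7 interneuron markers, Slc32a1 was the 1 that rose and Gad2 the 1 that fell. Their summed signal overlapped, at 14.43 to 14.49 with Ncoa3 shRNA and 14.36 to 14.55 with control shRNA (log2). Summed signals of 3 other marker lists did not overlap between the groups. Of the microglia markers 2 of 5 rose (Cx3cr1 and Aif1), with sums of 8.42 to 8.75 with Ncoa3 shRNA and 8.10 to 8.28 with control shRNA. All 5 lay below the median gene, where 28.6% of genes passed in either direction. In the deposited values Cx3cr1 did not pass (limma's adjusted p = 0.109). Aif1 had the same deposited value on all 3 control shRNA arrays, and its deposited difference was 0.15, against 0.43 after quantile normalization. Of the fibroblast and vessel markers 1 of 4 measured rose (Dcn, by 0.52, adjusted p = 0.0385), with sums of 11.18 to 11.43 with Ncoa3 shRNA and 10.76 to 11.07 with control shRNA. Dcn was by far the brightest of them, so these sums mostly repeat its values. Col1a2 was higher (0.13), whereas Col1a1 (-0.21) and Cldn5 (-0.12) were lower, none past the test. The deposited difference of Dcn was 0.31 and did not pass (limma's adjusted p = 0.0948). Of the hippocampal excitatory neuron markers 0 of 5 measured passed, with sums of 13.59 to 13.64 with Ncoa3 shRNA and 13.57 to 13.59 with control shRNA, a gap smaller than the rounding. Oligodendrocyte lineage sums overlapped, at 10.53 to 10.79 with Ncoa3 shRNA and 10.50 to 10.70 with control shRNA. Pdgfra was higher by 0.32 and Mog lower (-0.26), both past the test. Replicates of Pdgfra did not vary within either group as deposited, where the groups differed by only 0.04. The replicate spread of Pdgfra after quantile normalization therefore came from that step alone. Mog read 7.99 as deposited in every control shRNA culture, and its deposited difference was -0.54. The part of these markers in the results was not tested.

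**Figure D4:**
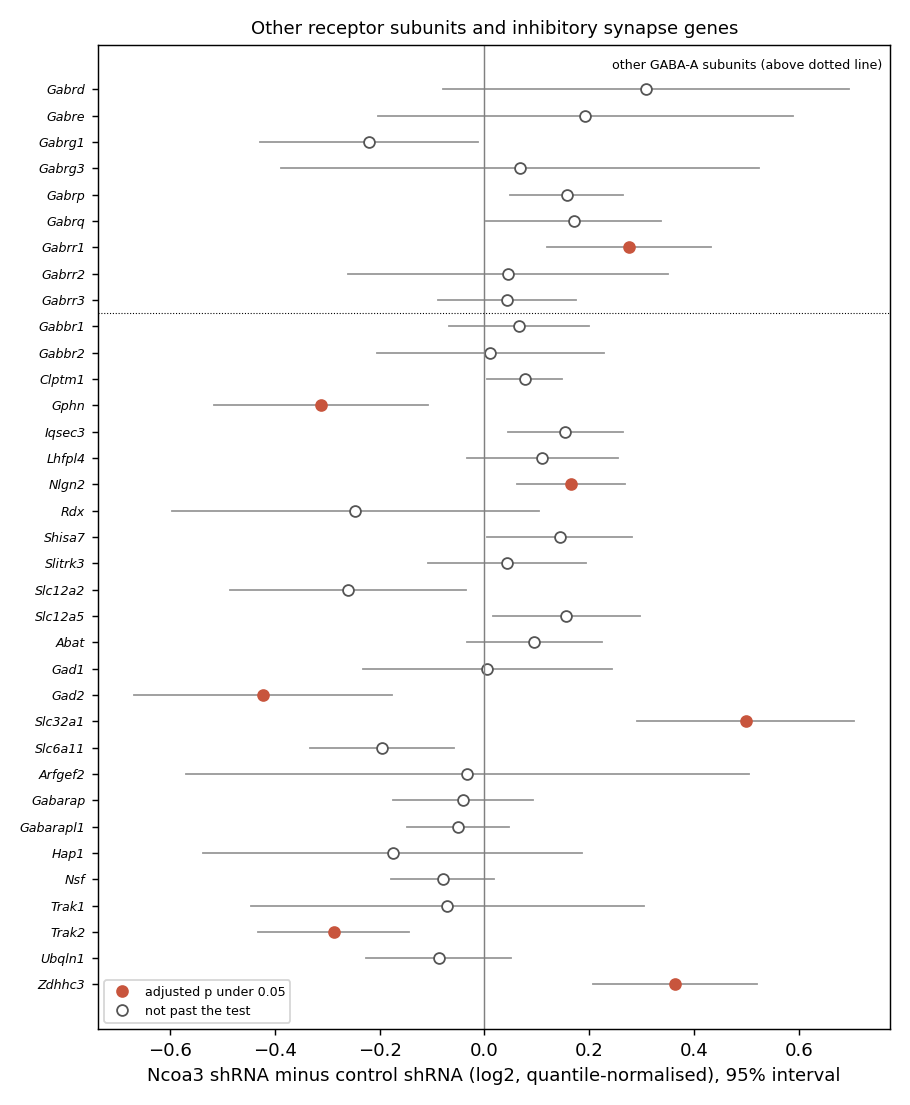
Change with Ncoa3 shRNA (log2, quantile-normalised, horizontal axis) of 9 other GABA-A receptor subunits and 26 inhibitory synapse and GABA genes, with 95% intervals. Filled points passed limma's test: Gabrr1 among the subunits, and Gphn, Nlgn2, Gad2, Slc32a1, Trak2 and Zdhhc3 among the others.

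For each bright subunit gene the 3 genes with the most similar profile were taken from the genes at or above the median signal. Likeness was the root mean square difference over the 6 arrays, in log2 units, of signals centred on each gene's mean. The nearest to Gabra2 was Vps41, a gene of lysosomal trafficking (0.0608), followed by Zfp715 (0.0709) and Bzw1 (0.0766). Gabra3 was nearest to the endoplasmic reticulum chaperone gene Hsp90b1 (0.0288), then Daam1 (0.0289) and Vamp7 (0.0291). Gabra4 was nearest to Cul3, the scaffold of a ubiquitin ligase (0.0614), then Fnbp1l (0.0666) and Mob4 (0.0667). These 3 companions of Gabra4 had changes of -0.43, -0.43 and -0.46. Gabra5 was nearest to Rbbp9 (0.0250), then Ube4a (0.0277) and Vps8 (0.0282). Gabrb1 was nearest to the ubiquitin ligase gene Ubr1 (0.0419), then Fam135b (0.0470) and Dock11 (0.0524). Gabrb2 was nearest to Eea1, a tether of early endosomes (0.0698), then Bltp1 (0.0809) and the ubiquitin ligase gene Ube3a (0.0909). No subunit gene was among the nearest 3 of another, and all these distances share the same 6 arrays.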

How the data were processed

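Expression was measured on 6 Affymetrix arrays, and the authors deposited 1 log2 signal per probe set and array (36685 probe sets). Per the submitters' processing notes, Affymetrix Expression Console was used; neither version nor normalization is given in the sources used here. The platform's annotation named the probe sets: 18511 carried 1 symbol, 575 several and 17599 none, and 18394 of the 18511 were found in RefSeq (GRCr8). The brightest probe set per gene left 18166 genes. All 6 arrays were quantile-normalised, and limma 3.58.1 (R 4.3.3) fitted the shRNA group with eBayes and a trend on signal. Two-sided p-values were adjusted by Benjamini-Hochberg over all genes, and 0.05 was the threshold. The number of arrays limits the precision.

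The subunit genes and gene lists were chosen with earlier results of these data known. The text names every subunit gene, listed genes past the threshold, and Gphn, Nlgn2, Gad1 and Slc12a5 by role. Listed genes without a probe set of a single symbol were not analysed here. Numbers pair the arrays, since the labels say that a number marks an experiment. Deviations from group means correlated at r = 0.75, 0.56 and 0.80 within experiments, across genes, which are not independent. Alternatives were the deposited scale, equal array medians, the experiment as a block, no trend, bright genes only, averaged probe sets, and leaving out each array or experiment. The test was checked on simulated data.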

Additional observations from a re-analysis of the deposited data

How the results depend on the processing

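All values are counts of genes passing limma's test or log2 changes (Ncoa3 shRNA minus control shRNA). Of all genes 3548 passed (1905 higher, 1643 lower). The deposited values gave 8579 (722 higher, 7857 lower), equal array medians 1868, the experiment as a replicate block 7147, genes at or above the median signal alone 433, the deposited values with the block (added after the data were seen) 10932, and leaving out arrays or experiments 99 to 8352. Of the alpha and beta genes 1 passed, against 2, 1, 1, 0 and 2 under those 5 settings and 0 to 2 with arrays or experiments left out; genes at or above the median signal leave Gabra6 out. Of the other subunits 1 passed, against 4, 0, 4, 0 and 3, and 0 to 7. Of the inhibitory synapse genes 6 passed, against 11, 2, 9, 2 and 15, and 0 to 9. The test across experiments called 1 alpha or beta gene, against 0 with the deposited values, 3 with equal array medians (Gabra5, Gabra6 and Gabrb2), 0 without the trend, and 0 to 1 with arrays or experiments left out. Under the replicate block on the quantile-normalised scale the SE was 0.145 for Gabra4 and 0.0190 for Gabra6 (limma's adjusted p = 0.0861 and 0.00324). On this scale the block changed no call of an alpha or beta gene. In the deposited values it ended that of Gabra4 (adjusted p = 0.0633, against 0.0146 without it) and gave one to Gabra5 (0.0159, against 0.136). Equal array medians ended the calls of Gabrr1, Gad2, Gphn, Nlgn2 and Trak2 (adjusted p = 0.0562 to 0.424), bright genes alone those of Gad2, Gphn, Nlgn2 and Trak2 (0.0503 to 0.0947), no trend those of Gphn (0.0569) and Nlgn2 (0.0533), and the deposited values those of Gabrr1 and Nlgn2 (0.766 and 0.754, or 0.735 and 0.598 with the block), and with the block that of Zdhhc3 (0.0715). With equal array medians Gabra3 was at 0.044 and Gabra5 at 0.12. In the deposited values, with or without the block, Gabrp was at -0.11, Gabrq at -0.10, Gabrr1 at -0.0097, Gad1 at -0.15, Iqsec3 at -0.026, Nlgn2 at -0.015 and Slc12a5 at -0.047. With arrays or experiments left out, Gabrb1 ran from -0.41 to 0.035 and Gabrb2 from -0.47 to 0.19 (both highest without Ncoa3 shRNA replicate 2; Gabrb2 was also above 0 without control shRNA replicate 3), and Gad1 from -0.077 to 0.079. The cause of these shifts was not tested, and 3 arrays per group limit the precision. Detection calls were not used here, so no bound on the dim Gabra6 signal is given.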
